A study of Drosophila melanogaster with 6 samples.

Results

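The 150 Affymetrix probe sets described here were selected on the spread among 3 wild-type arrays of the larval fat body of Drosophila melanogaster. In each of them the scaled signal was lowest in wild-type replicate 1, intermediate in replicate 2 and highest in replicate 3, and they had the largest differences between replicates 3 and 1 on the log2(signal + 5) scale. They were 150 of 8538 tested probe sets (1.76%) and of 1798 probe sets in the same order (8.34%). The numbers of the replicates are names and carry no order in time or treatment. The values below describe where the 3 mutant arrays fell on this wild-type spread. Since the wild-type arrays chose the members, their differences from each other are a description and were not tested.

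The mutant arrays came from srl1/srl1 larvae, which carry a mutant allele of the gene spargel (srl) on both chromosomes, and the wild-type arrays came from srlwt/srlwt larvae that the series calls genetically matched. Each group held 3 biological replicates, each RNA being extracted from a pool of 20 fat bodies. The protocol text is the same for all samples and names mutant larvae 5 days old, so no separate age is given for wild type. The sample titled as mutant replicate 3 carries the name of replicate 2 in its description, so which array is replicate 2 rests on the titles; 0 probe sets had equal deposited values in both arrays. No probe set was paired with srl, so its level was not analysed here. The srl product is related to the PGC-1 coactivators of mammals, regulators of mitochondrial genes.

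The fat body is the storage, metabolic and endocrine tissue of the larva. In the last larval stage the steroid hormone ecdysone changes its expression programme and that of other tissues. The salivary glands then make glue proteins, the Sgs products, which fix the pupa to its substrate, after an earlier period in which they express the new-glue (ng) genes. Fat body tissue is attached to the salivary glands, and the larval gonads lie embedded in it. In bulk RNA, fewer cells of a type and less RNA per cell cannot be told apart.

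Signals are intensities after each array was scaled to a common trimmed mean of 99.4, and 19.9 served as the floor for a measurable signal. Of the 150 members, 139 were paired with 1 gene symbol (138 genes), 8 with several symbols and 3 with none. Of the 139, 71 had only a CG number as a name. Scale factors were 2.14, 0.931 and 0.879 in mutant replicates 1, 2 and 3, against 0.793, 1.03 and 0.923 in wild-type replicates 1, 2 and 3. The GAPDH 3′ to 5′ signal ratio, a measure of RNA integrity and amplification, was 4.28, 1.72 and 2.18 in the mutant arrays, against 1.55, 1.85 and 2.00 in the wild-type arrays. The eIF-4a ratio was 3.43, 2.72 and 2.64 in the mutant arrays, against 2.27, 2.19 and 2.00 in the wild-type arrays. Every mutant array was thus above every wild-type array in this ratio. The actin ratio was 1.07, 1.17 and 1.09 in the mutant arrays, against 1.14, 1.31 and 1.16 in the wild-type arrays. In that ratio the groups overlapped, and mutant replicates 1 and 3 were lowest. The 18S rRNA 3′ signal was 85.1, 502 and 211 in the mutant arrays, against 813, 334 and 477 in the wild-type arrays. It was lowest in mutant replicates 1 and 3 and highest in wild-type replicate 1, as was the 5′ signal. The 18S rRNA middle (M) signal was 217, 572 and 515 in the mutant arrays, against 796, 508 and 535 in the wild-type arrays. There mutant replicate 3 was above wild-type replicate 2. The part of RNA quality in the results was not tested. The fat body list had 9 tested probe sets and 0 members; limma called 0, with 1 higher and 0 lower at an unadjusted p under 0.05. Fbp2, Lsp2, apolpp and FASN1 of that list had signals of at least 6936 in all 6 arrays, and Npc2e and Gbp1 were above the floor in wild-type replicate 2 only. Hex-C, a hexokinase gene, had 75.7, 1373 and 113 in the mutant arrays, against 1397, 885 and 556 in the wild-type arrays. Precision is limited by the small number of arrays.

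Mutant replicates 1 and 3 lay beyond the high end of the wild-type spread at most members, and mutant replicate 2 lay inside it. The median member signal was 127, 40.7 and 131 in mutant replicates 1, 2 and 3, against 15.3, 34.0 and 70.6 in wild-type replicates 1, 2 and 3. Over all tested probe sets the medians were 106, 100 and 111 in the mutant arrays, against 94.9, 98.0 and 98.7 in the wild-type arrays. The members together held 2.62%, 0.846% and 2.40% of the summed signal in the mutant arrays, against 0.25%, 0.449% and 1.32% in the wild-type arrays. Mutant replicates 1 and 3 thus held more than any wild-type array, and mutant replicate 2 held less than wild-type replicate 3.

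A position was computed for each member, with 0 at wild-type replicate 1 and 1 at wild-type replicate 3 on the log2(signal + 5) scale. The median position was 1.53 in mutant replicate 1 (quartiles 1.28 and 1.71), 0.69 in mutant replicate 2 (quartiles 0.51 and 0.83) and 1.52 in mutant replicate 3 (quartiles 1.32 and 1.70). Wild-type replicate 2 had a median position of 0.69 (quartiles 0.35 and 0.86). The mean of the 3 mutant medians was 1.24 ± 0.48 (SD, n = 3). Under median centring of the arrays, with members chosen again, the median positions were 1.14, 0.65 and 1.42 in mutant replicates 1, 2 and 3. Mutant replicate 1, the array with the largest scale factor, then exceeded wild-type replicate 3 at 68.0% of members.

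**Figure D1:**
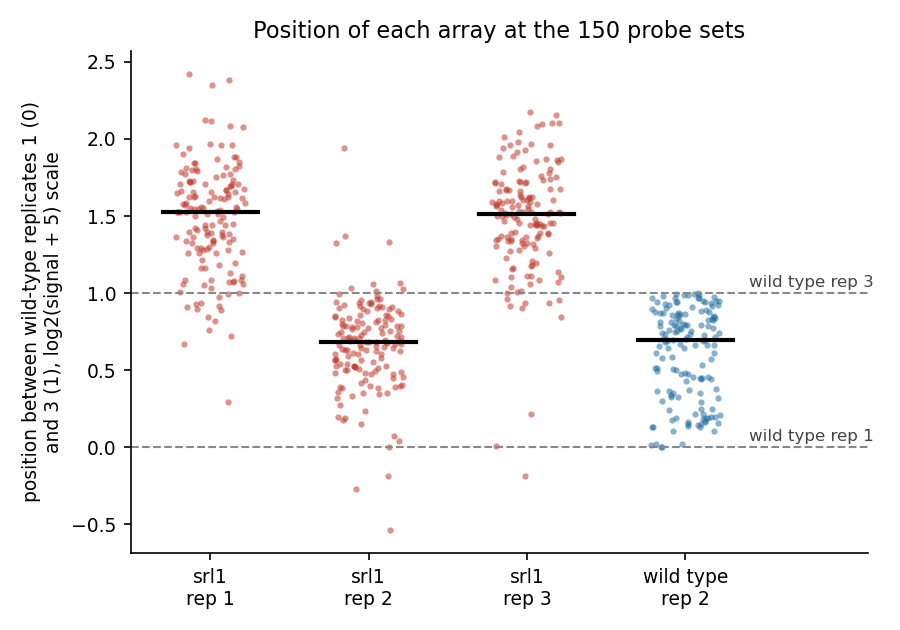
Position of each mutant array and of wild-type replicate 2 at the 150 members, where 0 is wild-type replicate 1 and 1 is wild-type replicate 3 (dashed lines). Points are probe sets and bars are medians, which were 1.53, 0.69 and 1.52 in the srl1 arrays and 0.69 in wild-type replicate 2; the horizontal scatter within a column has no meaning.

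In mutant replicate 1, 135 of 150 members exceeded all wild-type arrays, against a background of 47.1% of tested probe sets. In mutant replicate 3 the count was 139, against a background of 48.4%. In mutant replicate 2 it was 9, against 29.0%. As shares of the members these counts are 90.0%, 92.7% and 6.0%. Among the other 1648 probe sets in the same wild-type order, the shares above wild-type replicate 3 were 72.1%, 31.2% and 76.7% in mutant replicates 1, 2 and 3. The floor was part of the choice of members, and 92 of 150 were under it in wild-type replicate 1. Among the 58 members at or above the floor in all 3 wild-type arrays, which needed no mutant value to pass, 53, 5 and 54 exceeded wild-type replicate 3 in mutant replicates 1, 2 and 3.

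Mutant replicates 1 and 3 were close to each other at the members. Their median absolute difference was 0.21 on the log2 scale, beside 0.23 over all tested probe sets. Mutant replicate 2 differed from replicate 1 by a median of 1.46 and from replicate 3 by 1.53, beside 0.45 and 0.42 over all tested probe sets. It was nearer to wild-type replicates 1, 2 and 3 (1.17, 0.37 and 0.59) than to either other mutant array, as it also was over all tested probe sets (0.30, 0.26 and 0.21). It was the lowest mutant array at 145 members, beside 46.3% of all tested probe sets. It lay between wild-type replicates 1 and 3 at 138 members, where the rule had chosen a wide gap between these replicates. The median gap was 1.69 over the members, beside an absolute 0.26 over all tested probe sets.

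The mean of the mutant arrays exceeded the mean of the wild-type arrays on the log2 scale at 148 of 150 members, beside 58.0% of all tested probe sets. The median log2 difference, mutant minus wild type, was 1.22 over the members, beside 0.10 over all tested probe sets. Of the members, 36 had 1 and 56 had 2 wild-type arrays at or above the floor. These passed the filter of 3 arrays only through mutant arrays, so their mutant signals were part of the choice. All 3 mutant arrays were above all 3 wild-type arrays at 7 members, against a background of 16.5%, and below them at 0 members, against 13.5%. The limma fit over all 8538 probe sets called 1 member higher, Cyp309a1, against a background of 0.761%, and 0 members lower, against 0.632%. At an unadjusted p under 0.05, 49 members were higher and 0 were lower in that fit. Over all tested probe sets, 2330 (27.3%) passed this threshold in either direction. Without mutant replicate 2 the fit called 92 members, beside 3163 of all 8538 tested probe sets. The remaining mutant arrays were then above all wild-type arrays at 131 members, beside 39.0% of all tested probe sets. Without wild-type replicate 3 the counts of members were 6 and 78. By the rule that array is the highest wild-type array at every member, so leaving it out cannot lower the second count. No share over all tested probe sets is given for the 78. Without any other array no member was called. Nothing is read from these differences, counts and calls, since the same wild-type arrays chose the members.

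The glue protein genes headed the members. Sgs3 had a signal of 13491, 2831 and 9624 in mutant replicates 1, 2 and 3, against 0.668, 0.68 and 7349 in wild-type replicates 1, 2 and 3. Sgs5 had 6568, 1030 and 4774 in the mutant arrays, against 3.19, 10.4 and 3327 in the wild-type arrays. Sgs1 had 3583, 414 and 4173 in the mutant arrays, against 1.85, 1.88 and 2209 in the wild-type arrays. All 3 transcripts were far above the floor in every mutant array and in wild-type replicate 3, and under the floor in wild-type replicates 1 and 2. The groups overlapped at each, because mutant replicate 2 was below wild-type replicate 3. The log2 differences, mutant minus wild type, were 6.86 at Sgs3, 5.41 at Sgs5 and 5.29 at Sgs1. Without wild-type replicate 3 they were 10.3 at Sgs3, 8.15 at Sgs5 and 8.07 at Sgs1, and with 1 in place of 5 added before log2 they were 8.03, 5.88 and 6.13. The lowest values without 1 array were 5.13, 3.82 and 3.9. Sgs5bis, a relative of Sgs5 next to it in the genome, had 268, 30.7 and 275 in the mutant arrays, against 2.62, 10.4 and 411 in the wild-type arrays. At Sgs5bis no mutant array exceeded wild-type replicate 3.

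Other glue genes had the same array pattern but were not members, since their signal in wild-type replicate 2 was below that in replicate 1. Eig71Ee, an ecdysone-induced gene also expressed in the glands, had 8900, 1061 and 8428 in the mutant arrays, against 14.8, 13.3 and 7218 in the wild-type arrays. Sgs4 had 8995, 1166 and 7675 in the mutant arrays, against 73.1, 37.4 and 5090 in the wild-type arrays. Sgs7 had 1874, 292 and 2161 in the mutant arrays, against 1.16, 1.04 and 751 in the wild-type arrays. Sgs8 followed the same pattern. The new-glue genes ng1 to ng3 were lowest in mutant replicates 1 and 3, and ng4 was under the floor in every array. ng1 had 615, 2374 and 694 in the mutant arrays, against 2361, 1900 and 1915 in the wild-type arrays. ng2 and ng3 were likewise lower in mutant replicates 1 and 3 than in the other 4 arrays, and in the wild-type arrays ng3 was highest in replicate 3, with 2557, 2298 and 3306.

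The salivary gland glue list held 11 genes, all matched, with 10 tested probe sets, of which 3 were members. Its summed signal was 47337, 15567 and 40657 in the mutant arrays, against 6947, 5871 and 33580 in the wild-type arrays. limma called 0 of the 10. At an unadjusted p under 0.05, 4 were higher and 0 lower, beside 27.3% of all tested probe sets in either direction. The median log2 difference, mutant minus wild type, was 4.80, beside 0.10 over all tested probe sets. The sums, which include the 3 members, were highest in mutant replicates 1 and 3 and wild-type replicate 3, but lower in wild-type replicate 2 than in replicate 1. The part of gland tissue in the result was not tested. Of the fat body list, Fbp1, an ecdysone-responsive receptor for storage proteins, had a similar array pattern. Its signal was 10578, 1166 and 7235 in the mutant arrays, against 101, 41.0 and 3345 in the wild-type arrays. Its adjusted p in the limma fit was 0.165. The log2 differences, mutant minus wild type, were 4.14 at Fbp1, 0.81 at bmm, 0.44 at Fbp2 and 0.31 at Lsp2 of that list. Hex-C of the list was lowest in mutant replicates 1 and 3.

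**Figure D2:**
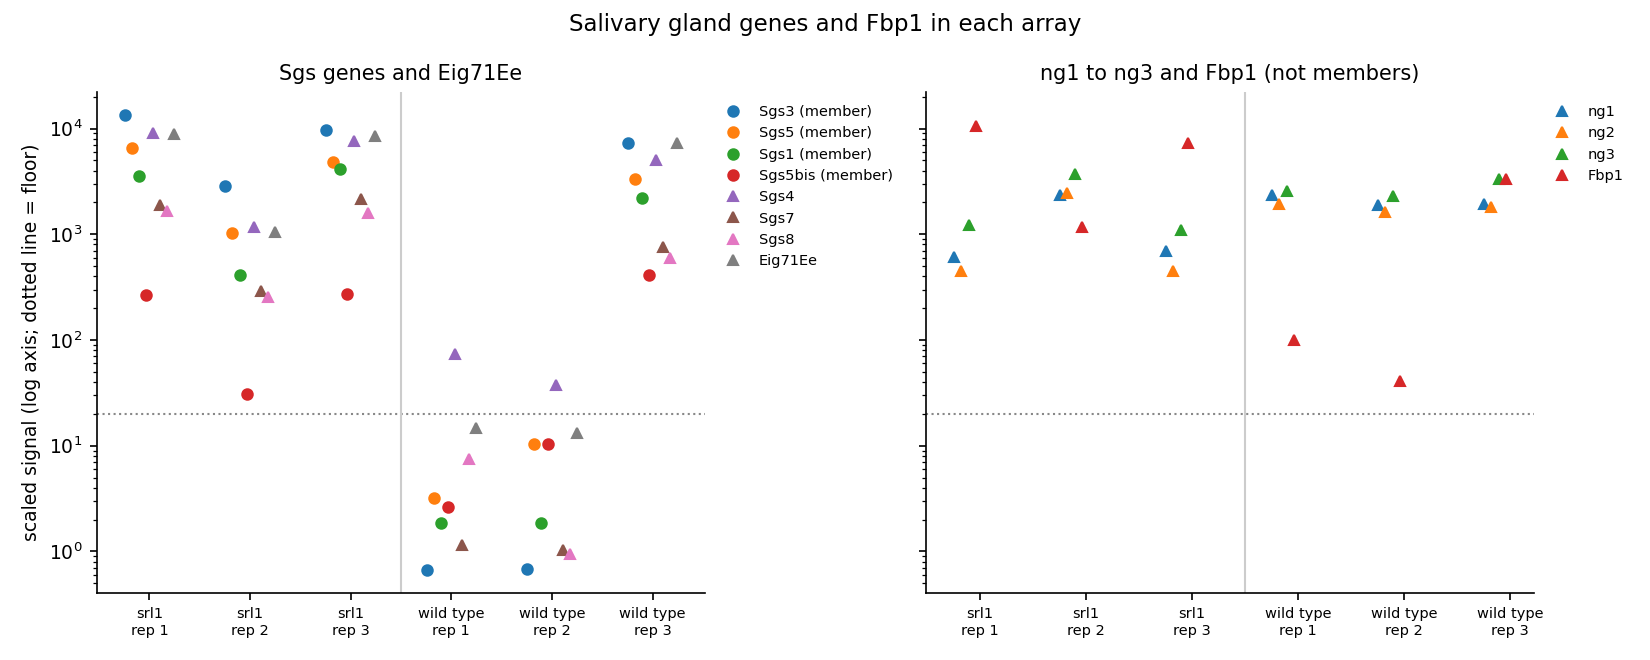
Scaled signal (log axis) of glue genes, left, and of the new-glue genes and Fbp1, right, in each srl1 and wild-type array; circles are members, triangles are other genes, and the dotted line is the floor of 19.9. The Sgs genes and Eig71Ee are high in the 3 srl1 arrays and in wild-type replicate 3, with srl1 replicate 2 below the other srl1 arrays, and ng1 to ng3 are lowest in srl1 replicates 1 and 3.

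Of the further salivary gland genes, sage was a member; sens and Pgant1, on no list, were chosen for mention with their values known. sage, which encodes a transcription factor of the salivary gland, had 526, 235 and 819 in the mutant arrays, against 105, 108 and 484 in the wild-type arrays. sens, which encodes a zinc finger transcription factor that acts with sage, had 160, 78.3 and 225 in the mutant arrays, against 33.4, 43.5 and 144 in the wild-type arrays. Pgant1, of the family of enzymes that start O-glycosylation, had 1046, 478 and 1380 in the mutant arrays, against 105, 145 and 802 in the wild-type arrays. At all 3, mutant replicate 2 lay between wild-type replicates 2 and 3, and the other mutant arrays lay above wild-type replicate 3. The list of 6 further salivary gland genes had 5 tested probe sets, with a median log2 difference, mutant minus wild type, of -0.03. limma called 0 of the 5, with 0 higher and 1 lower at an unadjusted p under 0.05. The tested probe set of Pgant9 had 549, 91.4 and 657 in the mutant arrays, against 33.8, 23.1 and 259 in the wild-type arrays. PH4alphaSG1, a prolyl 4-hydroxylase gene of the gland, had 118, 331 and 146 in the mutant arrays, against 269, 232 and 307 in the wild-type arrays. PH4alphaSG2 had 214, 559 and 292 in the mutant arrays, against 563, 540 and 714 in the wild-type arrays. Both PH4alphaSG genes were thus lowest in mutant replicates 1 and 3, and fkh had 36.1 to 60.1 in the mutant arrays, against 37.1 to 54.5 in the wild-type arrays.

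Several membrane proteins and enzymes had larger excesses over wild-type replicate 3. NimC2, of the Nimrod family of phagocytosis receptors, had 1219, 26.2 and 655 in the mutant arrays, against 2.05, 16.4 and 133 in the wild-type arrays. CG9664 had 567, 71.5 and 449 in the mutant arrays, against 1.59, 9.69 and 93.3 in the wild-type arrays. NimC2 and CG9664 were the 2 members above 4-fold over wild-type replicate 3 in both mutant replicates 1 and 3, and 60 members were above 2-fold in both. Of 10 genes on the hemocyte (blood cell) list, 4 had a tested probe set and 0 were members. The summed signal of the list was 2130, 8177 and 2390 in the mutant arrays, against 7867, 7282 and 5600 in the wild-type arrays. The sum was thus lowest in mutant replicates 1 and 3. That order follows 1 gene, Nplp2, which alone held most of the sum in mutant replicate 2 and in the wild-type arrays. Hml, eater, NimC1, Sr-CI and lz were under the floor in all 6 arrays. The prophenoloxidase gene PPO1 had 58.4, 18.9 and 51.5 in the mutant arrays, against 15.2, 18.6 and 13.5 in the wild-type arrays, and so was above the floor in mutant replicates 1 and 3 only. PPO2 had 110, 44.1 and 74.9 in the mutant arrays, against 44.5, 49.9 and 48.9 in the wild-type arrays. It was likewise highest in mutant replicates 1 and 3. Nplp2 of the list went the other way, with 1011, 7037 and 1253 in the mutant arrays, against 6895, 6447 and 4655 in the wild-type arrays. For srp and He, mutant replicates 1 and 3 were not the highest arrays. limma called 0 of the 4, and 0 passed an unadjusted p of 0.05. The part of blood cells in the result was not tested.

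3 tetraspanin genes of the Tsp42E cluster were members, and Tsp42Ej and Tsp42Ek are neighbours. Tsp42Ep had 2810, 195 and 1753 in the mutant arrays, against 23.5, 24.5 and 479 in the wild-type arrays. Tsp42Ek had 2133, 415 and 1697 in the mutant arrays, against 130, 231 and 779 in the wild-type arrays. Tsp42Ej had 234, 60.9 and 235 in the mutant arrays, against 28.5, 72.0 and 134 in the wild-type arrays. Mutant replicate 2 was below wild-type replicate 3 at each of them, and at Tsp42Ej it was also below wild-type replicate 2. Other neighbouring pairs of members were CG31698 with CG15404, CG18557 with CG3117, CG12448 with CG18063, Rpn13R with CG5062, and the maltase genes Mal-A5 with Mal-A6.

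Of the highest-ranked members known only by number, CG12715 had 1046, 124 and 1186 in the mutant arrays, against 1.23, 9.68 and 697 in the wild-type arrays. CG31698 had 365, 71.3 and 425 in the mutant arrays, against 2.19, 8.72 and 208 in the wild-type arrays. CG43084 had 118, 44.6 and 250 in the mutant arrays, against 1.19, 5.86 and 102 in the wild-type arrays. Each was under the floor in wild-type replicates 1 and 2 and above it in the other 4 arrays. CG15404 and CG31076 had lower signals, with 187, 26.2 and 188 for CG15404 in the mutant arrays, against 2.29, 17.7 and 89.0 in the wild-type arrays. CG31076 had 178, 15.1 and 119 in the mutant arrays, against 2.80, 11.7 and 76.8 in the wild-type arrays, so that mutant replicate 2 was under the floor.

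Metabolic genes of high signal were members as well. Pepck1, which encodes a phosphoenolpyruvate carboxykinase of gluconeogenesis, had 4758, 3311 and 3545 in the mutant arrays, against 772, 1091 and 2239 in the wild-type arrays. Oat, which encodes ornithine aminotransferase, had 6657, 3955 and 5147 in the mutant arrays, against 1093, 1831 and 2872 in the wild-type arrays. Cyp309a1, a cytochrome P450 gene, had 494, 620 and 814 in the mutant arrays, against 59.0, 72.6 and 202 in the wild-type arrays. The groups did not overlap at these 3 genes, and Cyp309a1 was the 1 called member. The other members without overlap were CG3868, CG14183, yuri and 1 probe set with no symbol. Of these, all but Pepck1 were chosen for mention with their values known.

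Further enzymes and transporters overlapped between the groups. Mal-A5 had 4390, 1668 and 2990 in the mutant arrays, against 496, 640 and 1857 in the wild-type arrays. Mal-A6 had 347, 11.99 and 202 in the mutant arrays, against 10.5, 10.8 and 51.1 in the wild-type arrays. Gat, which encodes a transporter of the transmitter GABA, had 661, 36.7 and 468 in the mutant arrays, against 14.0, 25.5 and 131 in the wild-type arrays. At all 3, mutant replicate 2 was above wild-type replicates 1 and 2 and below wild-type replicate 3. Srr, which encodes serine racemase, had 714, 155 and 569 in the mutant arrays, against 14.1, 37.3 and 195 in the wild-type arrays, with the same order.

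Of genes linked to ecdysone, sro, an enzyme gene of ecdysone synthesis, had 308, 98.2 and 306 in the mutant arrays, against 55.6, 80.5 and 234 in the wild-type arrays. One probe set of br, an ecdysone-induced transcription factor gene, was a member, with 108, 41.3 and 120 in the mutant arrays, against 24.8, 32.3 and 80.5 in the wild-type arrays. The other br probe sets were not members. The ecdysone response list, which does not hold sro, had 15 tested probe sets, 1 of them a member. limma called 0, with 3 higher and 1 lower at an unadjusted p under 0.05. The median log2 difference of the list was 0.18, beside 0.10 over all tested probe sets. Mutant replicates 1 and 3 were above the other arrays at 46.7% of it, beside 33.7% of all tested probe sets. Both tested probe sets were negative for Cyp18a1 (-1.36 and -0.48) and for ftz-f1 (-0.68 and -0.41). Over the 14 planned lists together, 157 genes gave 73 tested probe sets, of which 6 were members: Sgs3, Sgs5, Sgs1, Act87E, Pepck1 and br. limma called 0 of the 73. At an unadjusted p under 0.05, 10 were higher and 7 lower, beside 27.3% of all tested probe sets in either direction.

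A further group of members consisted of genes used in the making of sperm. betaTub85D, the testis-specific beta tubulin, had 1306, 385 and 1128 in the mutant arrays, against 170, 427 and 456 in the wild-type arrays. Mst84B, a male-specific transcript, had 395, 103 and 354 in the mutant arrays, against 51.2, 114 and 139 in the wild-type arrays. S-Lap7, a sperm leucyl aminopeptidase gene, had 779, 293 and 904 in the mutant arrays, against 132, 290 and 358 in the wild-type arrays. At these genes wild-type replicate 2 was near wild-type replicate 3, unlike at the glue genes. Mutant replicates 1 and 3 were the highest arrays, and wild-type replicate 1 was the lowest.

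The same order held at w-cup, a gene transcribed late in spermatogenesis, with 604, 115 and 546 in the mutant arrays, against 64.2, 205 and 205 in the wild-type arrays. fzr2, a testis relative of a regulator of the anaphase-promoting complex, had 76.8, 12.7 and 66.4 in the mutant arrays, against 4.16, 28.0 and 33.4 in the wild-type arrays. Mutant replicate 2 was below wild-type replicate 2 at both. Testis relatives of mitochondrial genes were present. Hsp60B, a chaperonin gene, had 157, 52.0 and 159 in the mutant arrays, against 15.6, 60.7 and 70.6 in the wild-type arrays. COX4L, which resembles a cytochrome c oxidase subunit gene, had 126, 78.2 and 152 in the mutant arrays, against 30.5, 88.4 and 98.7 in the wild-type arrays. COX6AL2, of the same kind, had 84.0, 13.7 and 75.6 in the mutant arrays, against 5.28, 21.7 and 28.9 in the wild-type arrays. The remaining members of this kind were wa-cup, tomboy40, ttm3, Vha68-3, eIF3g2, knon, cocoon, salto, gudu, yuri, Dic61B, Ccdc39 and Dnaaf6. Another, brighter yuri probe set was not a member, with wild-type replicate 3 its lowest array. It had 262, 227 and 299 in the mutant arrays, against 219, 213 and 194 in the wild-type arrays.

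These 21 members came from a list of 79 spermatogenesis genes, 70 of them matched, that was written after member names had been seen, so its share of members is no independent evidence. It had 61 tested probe sets. limma called 1 of them higher (vis, not a member, adjusted p 0.0326) and 0 lower. At an unadjusted p under 0.05, 17 were higher and 0 lower, beside 27.3% of all tested probe sets in either direction. The median log2 difference was 0.82. Mutant replicates 1 and 3 were above the other 4 arrays at 58 of the 61 (95.1%), beside 33.7% of all tested probe sets. Among the 40 tested probe sets of the list that were not members, mutant replicates 1 and 3 were above the other 4 arrays at 37, and wild-type replicate 1 was the lowest wild-type array at 35, beside 40.4% of all tested probe sets. The summed signal of the list was 13235, 5737 and 13902 in the mutant arrays, against 3242, 6399 and 6593 in the wild-type arrays. The shorter germline list had 5 tested probe sets and 0 members, and limma called 0, with 0 at an unadjusted p under 0.05. Its median log2 difference was 0.20. Mutant replicates 1 and 3 were above the other 4 arrays at 2 of the 5, dj and twe, which are also on the spermatogenesis list. At the others the log2 difference was 0.20 at aub, -0.22 at bam and -0.05 at piwi. The part of gonad tissue was not tested.

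**Figure D3:**
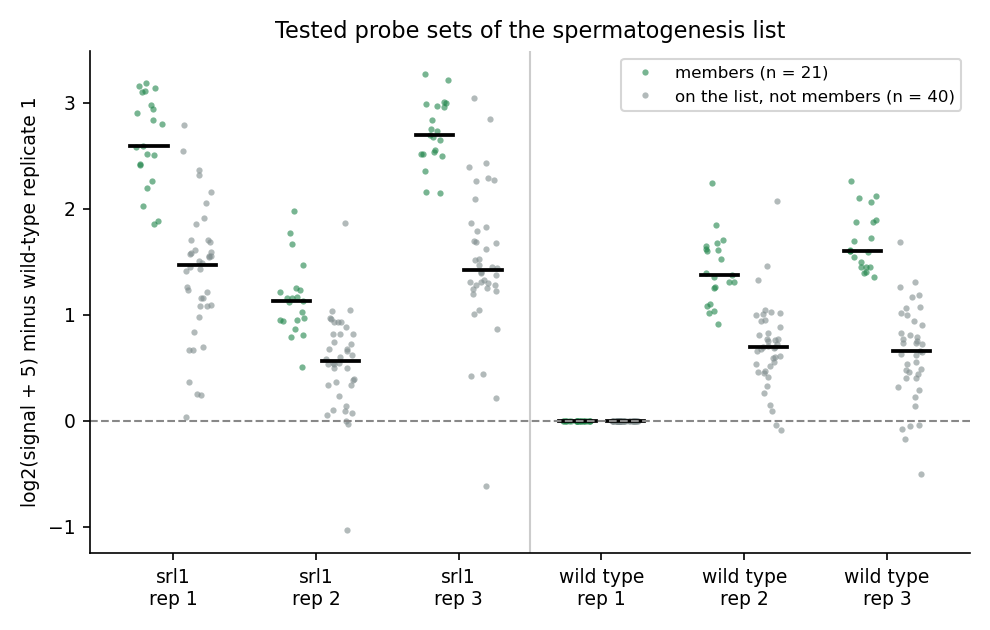
log2(signal + 5) minus wild-type replicate 1 at the 61 tested probe sets of the spermatogenesis list in each srl1 and wild-type array, for 21 members (green) and 40 others (grey); bars are medians, and the horizontal scatter has no meaning. Both sets are highest in srl1 replicates 1 and 3, and the other 40 have medians of 1.47, 0.57 and 1.42 in the srl1 arrays, against 0.69 and 0.65 in wild-type replicates 2 and 3.

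The members were divided by whether wild-type replicate 2 was nearer to replicate 1 (position under 0.5) or to replicate 3, a division made after the values were seen. The 54 members with wild-type replicate 2 nearer to replicate 1 included all 4 Sgs members and 0 of the spermatogenesis list. Their median signal was 329, 71.4 and 291 in the mutant arrays, against 18.6, 32.7 and 150 in the wild-type arrays. The 96 members with wild-type replicate 2 nearer to replicate 3 included all 21 of the spermatogenesis list. Their median signal was 94.5, 33.0 and 92.6 in the mutant arrays, against 12.9, 36.8 and 51.0 in the wild-type arrays. The median position of mutant replicate 2 was 0.65 in the set of 54 and 0.69 in the set of 96. The medians of mutant replicates 1 and 3 were 1.41 and 1.36 in the set of 54, and 1.54 and 1.58 in the set of 96.

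**Figure D4:**
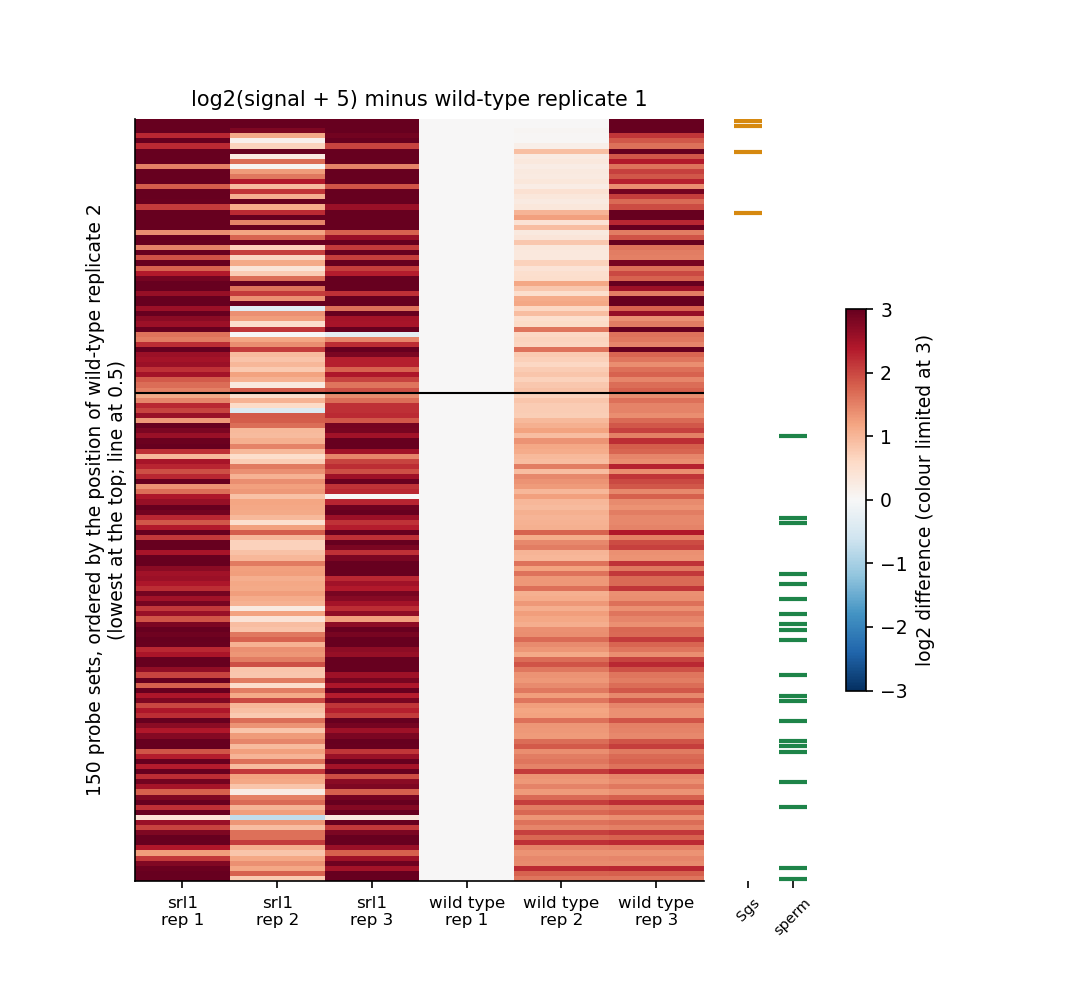
log2(signal + 5) minus wild-type replicate 1 for the 150 members (rows) in the 3 srl1 and 3 wild-type arrays, ordered by the position of wild-type replicate 2, with colour limited at 3 log2 units and a line at position 0.5. Marks on the right show the 4 Sgs members, all above the line, and the 21 members of the spermatogenesis list, all below it.

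A few members departed from the common order. CG13659 had 526, 233 and 488 in the mutant arrays, against 395, 997 and 1045 in the wild-type arrays, and l(2)efl, a small heat shock protein gene, had 72.2, 19.9 and 15.1 in the mutant arrays, against 19.8, 33.1 and 71.7 in the wild-type arrays. These were the 2 members with a negative log2 difference, mutant minus wild type, of -0.92 at CG13659 and -0.30 at l(2)efl. Mf, a gene of muscle filaments, had 128, 40.4 and 20.1 in the mutant arrays, against 19.7, 53.2 and 80.0 in the wild-type arrays. Act87E, a muscle actin gene, had 144, 47.9 and 89.3 in the mutant arrays, against 35.0, 84.7 and 106 in the wild-type arrays. At both muscle genes mutant replicate 1 was the highest array and mutant replicate 3 was below wild-type replicate 3. The muscle list had 4 tested probe sets, 1 of them a member, with a summed signal of 822 to 1441 in the mutant arrays, against 619 to 950 in the wild-type arrays. limma called 0 of these 4, and 0 passed an unadjusted p of 0.05.

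GstE7, a glutathione S-transferase gene, had 692, 505 and 974 in the mutant arrays, against 348, 684 and 975 in the wild-type arrays. CG14070 had 48.3, 30.2 and 59.2 in the mutant arrays, against 19.1, 34.1 and 58.4 in the wild-type arrays. At both, the mutant and wild-type ranges nearly coincided above wild-type replicate 1. The log2 difference, mutant minus wild type, was 0.18 at GstE7, 0.34 at CG14070, 0.10 at Mf and 0.30 at Act87E. Their directions changed under other scalings or without 1 array, as given with the processing alternatives.

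At the threshold, PPYR1 was the last member, with 56.0, 15.8 and 55.9 in the mutant arrays, against 12.5, 37.2 and 39.5 in the wild-type arrays. Rtnl2 was the first probe set outside, with 106, 62.8 and 136 in the mutant arrays, against 24.5, 67.8 and 70.0 in the wild-type arrays. Their log2 differences between wild-type replicates 3 and 1 were 1.347 and 1.346. A further 56 tested probe sets had as large a difference between these replicates and were not members because of the position of wild-type replicate 2 or because wild-type replicate 3 was under the floor, and at 54 of them mutant replicates 1 and 3 exceeded wild-type replicate 3. Of all tested probe sets, 58 had as large a difference in the opposite direction, wild-type replicate 1 above replicate 3.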

How the data were processed

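The authors deposited signal intensities, 1 per probe set and array. Per the submitters' processing notes, GCOS 1.4 and MAS5 were used, with no settings given in the sources used here. MAS5 signals of dim probe sets are noisy. Groups and replicate numbers were taken from the titles.

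The table held 18952 probe sets, 183 of them controls, which were left out. The arrays' 2% trimmed means, 46.5 to 125 as deposited, were scaled to their mean, 99.4. Probe sets of at least 19.9 in 3 or more arrays were tested (8538), with 5 added before log2, in limma 3.58.1 (R 4.3.3; trend, Benjamini-Hochberg, threshold 0.05, two-sided, no replicate block). Gene symbols came from the platform annotation (14049 probe sets, 13945 updated through gene ID). The fit was tested before use on simulated data with independent noise in each array. It recovered 44.0% and 32.0% of log2 changes of 1 and -1, and 80.0% and 78.0% of changes of 2 and -2. Of 8338 unchanged probe sets it called 9. A departure of an array shared by many probe sets was not simulated.

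Members and lists were chosen with earlier results of these data known; the spermatogenesis and further salivary gland lists and the division at position 0.5 were chosen after values were seen. Named genes are the 12 members of largest wild-type difference with 1 symbol, the 6 of highest and the 6 of lowest log2 difference between mutant and wild type, and members on the planned lists; the other named genes were chosen after their values were seen. Same-numbered arrays were checked for pairing, and their deviations correlated at -0.34, -0.11 and 0.45. With 3 arrays per group these values can neither show nor exclude a pairing by number, and the titles state none. Alternatives were quantile normalization, median centring, 2 pseudocounts, 2 floors, 2 numbers of members, 2 variance models, the replicate block, leaving out each array and, added after seeing the data, a trimmed mean including control probe sets.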

Additional observations from a re-analysis of the deposited data

How the results depend on the processing

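The median position and the median log2 difference kept their direction under all alternatives run; without each array in turn, the position ranged from 1.1 to 1.52 and the log2 difference from 0.73 to 1.71. Positions could not be recomputed without a wild-type array, which the choice of members needs. The number of members called was 1, and was 0 without the trend and 0 with the replicate block. Without each array it ranged from 0 to 92. It was 92 without mutant replicate 2 and 6 without wild-type replicate 3. Members with every mutant array above every wild-type array numbered 7, against a background of 16.5% of tested probe sets. They numbered 3 among 75 members and 21 among 300. With a floor of the target divided by 10 they numbered 11, and no background share is given for that floor. Without each array they ranged from 7 to 131. The 131, without mutant replicate 2, stood beside 39.0% of all tested probe sets. Without wild-type replicate 3, 78 were counted, and no such share is given for them. Of the 150 members, 92 were chosen again with a floor of the target divided by 2, and 102 to 148 under the other alternatives with 150 members.

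Of all tested probe sets 119 were called. With the replicate block 16 were called, none of them members, and whether the numbers pair the arrays is not known. Without each array the count ranged from 21 to 3163, the highest without mutant replicate 2. Leaving out wild-type replicates 1, 2 and 3 gave 31, 24 and 54, and leaving out mutant replicate 1 gave 33 and replicate 3 gave 21. Median centring called 40 of 123 higher, beside 65 of 119 as reported. Single genes changed sign. Mf gave -0.07 with quantile normalization and -0.24 with median centring, GstE7 gave -0.19 and Act87E -0.06 with median centring. Without each array, Mf ranged from -0.56 to 0.64, GstE7 from -0.22 to 0.51, Act87E from -0.14 to 0.69, CG14070 from -0.01 to 0.69 and l(2)efl from -0.9 to 0.14. Of all values recomputed, 13 changed sign and the others outside these sentences kept direction. The causes were not tested.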
